A study of Equus caballus with 21 samples.

Results

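Genes that mark epithelial identity, together with the mesenchymal filament gene VIM, were followed through laser-captured compartments of the horse endometrium. The set was fixed by name and held 7 genes, EPCAM, CDH1, KRT8, KRT18, KRT19, SPINT2 and VIM, of 24942 gene IDs in the count table. EPCAM (gene ID 100053148), CDH1 (100066844), KRT18 (100063542), SPINT2 (100064080) and VIM (100056088) were matched, and KRT8 and KRT19, 2 of the 7, could not be matched by ID and were not analysed here. All 5 matched genes also stood in both deposited tables of scaled values.

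The 21 libraries came from warmblood mares whose ovulation had been induced with human chorionic gonadotropin, biopsied on day 12 of the estrous cycle (cyclic) or, after insemination, on day 12 of pregnancy. Prostaglandin F2 alpha was given to them on day 12 to end the luteal phase. Luminal epithelium gave 5 cyclic and 4 pregnant libraries, glandular epithelium 4 and 4, and stroma 2 and 2. The letter of a library names the mare, and the labels hold 5 letters (B, C, J, M and U), whereas their protocol speaks of 6 mares. The letters were used as given, so that the pairing and the mare blocks rest on them. Each library is 1 captured compartment of 1 biopsy, a captured area can hold more than 1 cell type, and some libraries, not named in the labels, were amplified further.

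EPCAM is a membrane glycoprotein that holds neighbouring epithelial cells together. CDH1, E-cadherin, is the calcium-dependent adhesion molecule of the adherens junction, anchored to actin through the catenins. KRT18 is a type I keratin that pairs with the type II keratin KRT8 in the filaments of simple epithelia, and KRT19 is a further type I keratin. SPINT2 is a Kunitz-type inhibitor of serine proteases of the epithelial surface, such as matriptase. VIM, vimentin, is a type III intermediate filament of fibroblasts, endothelial cells and leukocytes, and in human endometrium it is also found in epithelial cells. At this stage the equine conceptus is still mobile within the uterine lumen and has not attached to the luminal epithelium.

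Total counts ran from 136259 to 1467510 per library, and 1 count was worth 0.567 to 6.82 CPM (CPM, counts scaled to a common library size, is the unit of all levels here). Values under 3 counts are called below the floor. Ribosomal RNA genes took between 0.351% and 67.1% of a library. Mare M gave 3 libraries that are named where a result rests on them: pregnant luminal and cyclic glandular, which the second deposited table leaves out, and pregnant stromal, with the highest ribosomal share. Stromal libraries held fibroblast markers (14 of 15 matched and all 14 detected) at a summed 5650 to 13809 CPM, against 541.6 to 4519 in luminal and 259 to 1638 in glandular libraries. No stromal library overlapped an epithelial one in that sum, for scaled values only. Before scaling, pregnant stromal M held 3398 reads of these markers in a total of 1175127, and pregnant luminal M 877 in 136259. All values describe tissue RNA, in which fewer cells of a type and less RNA per cell cannot be told apart.

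**Figure D1:**
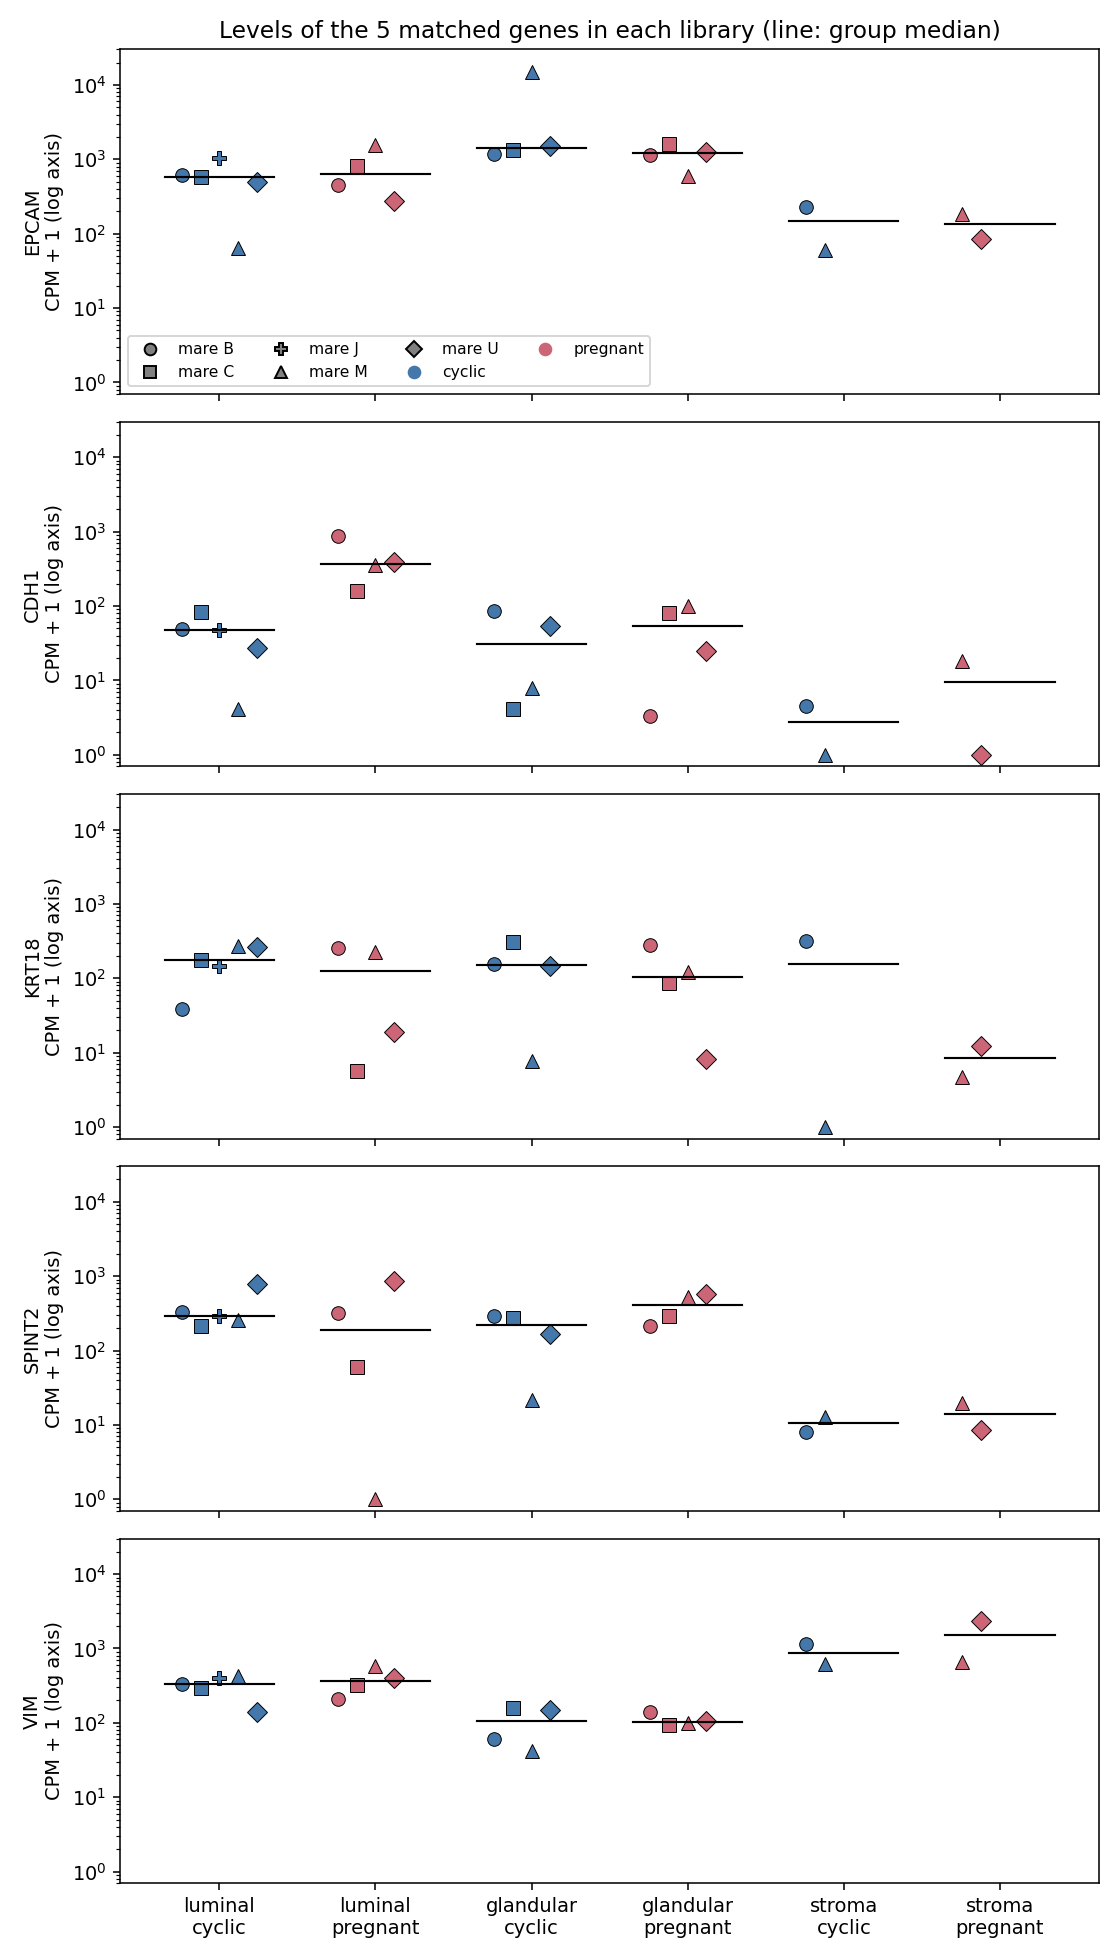
Level of each matched gene in every library, as CPM + 1 on a log axis, with mares as symbols, states as colours and a line at the group median. CDH1 stands at 160 to 865 CPM in the 4 pregnant luminal libraries, above all 5 cyclic ones, and SPINT2 stays at or under 18.8 CPM in the 4 stromal libraries.

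CDH1 had the smallest adjusted p of the 5 genes between the states, in luminal epithelium. In pregnancy it stood at 865 CPM in mare B, 384 in U, 356 in M and 160 in C, and in the cycle at 82.4 CPM in C, 47.7 in B, 46.6 in J, 26.4 in U and 3.13 in M. Every pregnant library was above every cyclic library, and all 4 mares sampled in both states had the higher value in pregnancy. The means were 441 ± 300 CPM (SD, n = 4) in pregnancy and 41.3 ± 29.3 CPM (n = 5) in the cycle. These levels rested on 624 and 157 reads, of which cyclic M contributed 1. The log2 fold change was 3.41 ± 0.93 (SE), a 10.7-fold difference, and it fell just short of the threshold over all genes tested (edgeR quasi-likelihood test, adjusted p = 0.0533, rank 23 of 4344 genes by p).

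Of the 5 matched genes 0 passed in luminal epithelium, where 0.437% of 4344 genes did. CDH1 was the 1 of 5 whose pregnant and cyclic luminal libraries did not overlap, a pattern that 4.81% of the genes tested showed. The CDH1 call appeared with RLE scaling (adjusted p = 0.0301), with DESeq2 (0.0023), and without the pregnant luminal library of mare C (0.0221) or M (0.0228). Over all 18 other settings the log2 fold change ran from 2.82, without pregnant B, to 3.87, with the mare as a paired block, and the adjusted p from 0.0023 to 0.318. The direction was thus the same in each of these settings, and the side of the threshold was not.

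Since scaling touches all 5 genes of a library alike, the share of CDH1 in their summed reads gives a view free of it. CDH1 took 41.3% of these reads in pregnant luminal B, 19.7% in U, 13.1% in M and 11.9% in C. In cyclic luminal libraries it took 6.13% in C, 3.53% in B, 2.45% in J, 1.54% in U and 0.305% in M. The order of the groups was the same as for CPM, with no overlap between them.

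Summed fibroblast markers stood at 1011 to 4519 CPM in pregnant and 541.6 to 1911 CPM in cyclic luminal libraries. HAND2 had no count in any luminal library and PDGFRA none in the pregnant ones. In stroma itself HAND2 had a count in 1 of 4 libraries and PDGFRA in 2 of 4, so these zeros tell little. The collagen gene COL1A1 had a log2 fold change of 1.99 ± 0.64 between the states (edgeR adjusted p = 0.168). CDH1 itself was at 0 to 17 CPM in the 4 stromal libraries, below each pregnant luminal value. Total counts were 136259 to 440188 in pregnant and 324704 to 1382614 in cyclic luminal libraries, and the part of these markers or of depth in the CDH1 difference was not tested.

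In glandular epithelium CDH1 stood at 85.6 CPM in cyclic B, 52.3 in U, 6.82 in M and 3.13 in C, and in pregnancy at 99.7 CPM in M, 79.9 in C, 24.1 in U and 2.28 in B. The states overlapped, and 2 of 4 mares had the higher value in pregnancy. Cyclic C, cyclic M and pregnant B were below the floor of 3 counts. The log2 fold change was 0.49 ± 1.45 (edgeR adjusted p = 0.999). The difference between the pregnancy effects, glandular minus luminal, was -3.13 ± 2.06 on the log2 scale and did not pass (edgeR adjusted p = 0.888), so a different response of the epithelia was not shown. The median of that difference over all genes was 1.28, and 0.98 with RLE scaling, so values for single genes are relative to a shift common to many genes. Luminal against glandular epithelium, CDH1 had 1.60 ± 0.73 (edgeR adjusted p = 0.229), with the luminal value higher in 5 of 8 biopsies. That value was 0.14 in cyclic and 3.31 in pregnant libraries alone, and it passed with DESeq2 (adjusted p = 0.0362).

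In stroma CDH1 had 9 reads in pregnant M, 1 in cyclic B and none in cyclic M and pregnant U. The ratio of pregnant to cyclic stroma was 5.12 with an exact 95% counting interval of 0.71 to 225, and the gene did not pass the filter on low counts there.

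**Figure D2:**
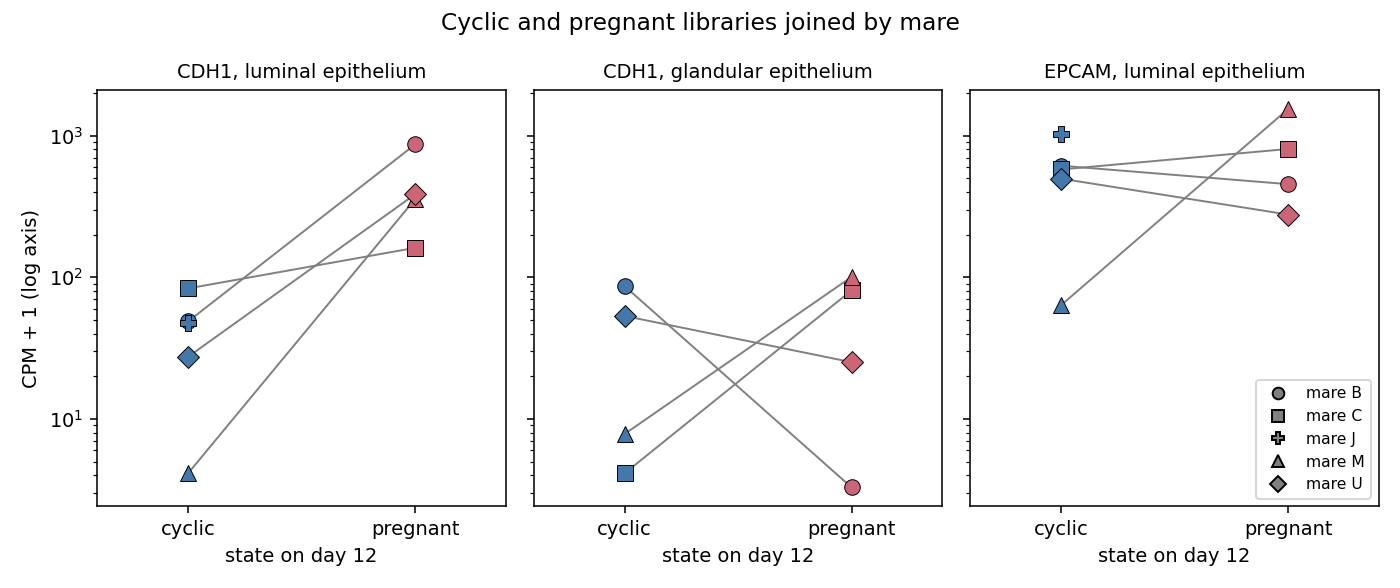
CPM + 1 on a log axis of CDH1 in luminal and glandular epithelium and of EPCAM in luminal epithelium, with a line joining the cyclic and pregnant library of a mare. All 4 lines rise for CDH1 in luminal epithelium, and 2 of 4 rise in each of the other panels.

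The binding partners of CDH1 were looked up in a list of 10 catenins, nectins and linked proteins. In luminal epithelium 7 of them were tested between the states and 0 passed in either direction. Their median log2 fold change was 0.85, against -0.04 over all genes tested, and 4 of the 7 had a value above 0. AFDN, afadin, which links nectins to actin, had 1.78 ± 0.73 (edgeR adjusted p = 0.416), and JUP, plakoglobin, 1.35 ± 0.75 (0.697). In glandular epithelium 0 of 6 passed, with 2.58 ± 1.06 for JUP (0.45) and a median of 1.25 against 0.07 over all genes.

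EPCAM was higher in glandular than in luminal epithelium. Its glandular levels were 1178 CPM in B, 1328 in C, 1523 in U and 14861 in M in the cycle, and 1142 in B, 1628 in C, 1272 in U and 592.5 in M in pregnancy. Its luminal levels were 612 CPM in B, 576 in C, 1025 in J, 496 in U and 62.5 in M in the cycle, and 453 in B, 804 in C, 1541 in M and 276 in U in pregnancy. The glandular library had the higher value in 7 of 8 biopsies, the exception being pregnant M. With counts summed per mare and the mare as block, EPCAM was lower in luminal than in glandular epithelium by a log2 fold change of -1.67 ± 0.39, a 3.18-fold difference (edgeR adjusted p = 0.000591). It was the 1 of 5 matched genes to pass this comparison, in which 6.94% of 7174 genes passed. The luminal and glandular libraries overlapped for all 5 genes, while 0.962% of genes tested showed no overlap.

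In mare M the cyclic glandular library gave 2178 EPCAM reads, against 315 in the pregnant one. Without mare M the fold change was -1.44 and still passed (adjusted p = 0.00765). The call ended when libraries were kept apart with the biopsy as block (-1.45, edgeR adjusted p = 0.0806). In cyclic libraries alone the value was -2.24 (0.041) and in pregnant libraries alone -0.79 (0.773). Whether the compartments differed more in the cycle was tested as the difference of the pregnancy effects, -1.36 ± 0.97, which did not pass (edgeR adjusted p = 0.888) and was 0.21 without mare M.

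Between the states EPCAM had a log2 fold change of 0.44 ± 0.64 in luminal epithelium (554 ± 343 CPM, n = 5, in the cycle and 768 ± 560 CPM, n = 4, in pregnancy). The edgeR adjusted p was 0.973, and the sign turned without the pregnant library of mare M (-0.17). In glandular epithelium the value was -1.95 ± 0.76 (edgeR adjusted p = 0.407), with 4723 ± 6760 CPM in the cycle and 1159 ± 430 CPM in pregnancy (n = 4 each). It shrank to -0.21 without the cyclic library of mare M, and to -0.85 with the mare as block. Apart from that library, glandular EPCAM kept within 592.5 to 1628 CPM in both states.

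The listed partners of EPCAM and SPINT2, among them the claudin CLDN7, the tetraspanin CD9 and the proteases of the epithelial surface, gave no call between the epithelia. Of 11 genes 9 were tested between luminal and glandular epithelium and 0 passed, with a median log2 fold change of 0.95 against -0.25 over all genes. SCNN1A, a subunit of the epithelial sodium channel, had 1.96 ± 0.83 (edgeR adjusted p = 0.169). Between the states 0 of 7 passed in luminal and 0 of 5 in glandular epithelium. SPINT1, the sister inhibitor of SPINT2, stood at 3.71 ± 1.34 in glandular epithelium (0.359).

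**Figure D3:**
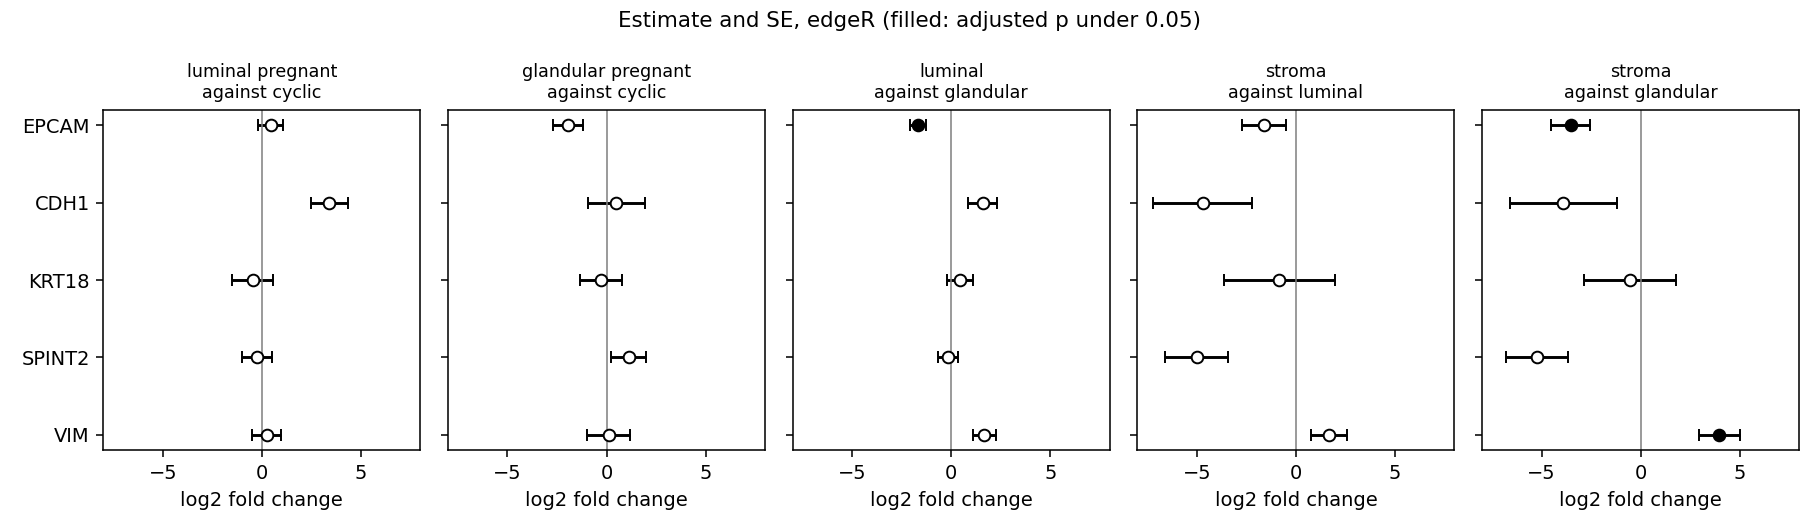
Log2 fold change with its SE for each matched gene in 5 comparisons by edgeR, with filled points where the adjusted p was under 0.05. Filled points are EPCAM in luminal against glandular epithelium (-1.67) and EPCAM (-3.53) and VIM (3.98) in stroma against glandular epithelium, and CDH1 in luminal epithelium (3.41) lies just outside the threshold.

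KRT18 was found in both epithelia and varied widely within each group. It ranged from 4.72 to 272 CPM with a median of 175 over 9 luminal libraries, and from 6.82 to 308 CPM with a median of 133 over 8 glandular ones. The lowest luminal values were those of pregnant C (2 reads) and pregnant U (7 reads), and the lowest glandular ones those of cyclic M (1 read) and pregnant U (3 reads). The luminal library was the higher one in 4 of 8 biopsies. The log2 fold change between luminal and glandular epithelium was 0.45 ± 0.67 (edgeR adjusted p = 0.897). Between the states it was -0.46 ± 1.03 in luminal and -0.28 ± 1.05 in glandular epithelium (0.977 and 0.999). These SE leave room for differences of several fold, so the levels were not shown to be equal.

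In stroma KRT18 stood at 314 CPM (90 reads) in cyclic B and at 11.3, 3.77 and 0 CPM in pregnant U, pregnant M and cyclic M. The cyclic B value was higher than in the luminal (37.4 CPM) and the glandular library (152 CPM) of the same biopsy. In that stromal library EPCAM was at 230.2 CPM, the highest of the 4 stromal values, while CDH1 had 1 read and SPINT2 2 reads. The epithelial genes did not move together there.

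Of 12 other keratins, 11 had an ID in the count table and 2 could be tested between the epithelia, of which 1 passed. KRT4, a type II keratin, was lower in luminal epithelium (-6.28 ± 1.69; edgeR adjusted p = 0.00545). It was found in 7 of 8 glandular libraries at up to 299 CPM and in 4 of 9 luminal ones at up to 13 CPM. Of 10 genes of the desmosome and of keratin anchorage, 9 were tested, with 1 higher and 1 lower in luminal epithelium. Over all genes 6.94% of 7174 passed. The median log2 fold change of the 9 was -1.66, against -0.25 over all genes, and 4 of them had a value above 0. PPL, periplakin, which ties keratin to the desmosome, was higher in luminal epithelium (2.74 ± 0.70; edgeR adjusted p = 0.00258). DSC3, a desmosomal cadherin, was lower (adjusted p = 0.0406), with a mean of 0.734 CPM in luminal and 42.7 CPM in glandular libraries. NECTIN4, an adhesion receptor of the nectin family, was the 1 of 9 catenin and nectin genes that passed and was higher in luminal epithelium (67.7 against 1.16 CPM; adjusted p = 0.00613).

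SPINT2 was near the detection floor in stroma. It stood at 7 CPM in cyclic B, 12 in cyclic M, 18.8 in pregnant M and 7.51 in pregnant U of the stroma, from 16 reads in all, and 3 of these 4 values were below the floor. Over 8 glandular libraries it ranged from 20.5 to 572 CPM with a median of 281, and over 9 luminal libraries from 0 to 870 CPM with a median of 287. Glandular and stromal libraries did not overlap in scaled CPM, by 20.5 in cyclic glandular M against 18.8 in pregnant stromal M. A single read of cyclic glandular M was worth 6.82 CPM. Without the scaling factors they overlapped, with 13.5 CPM in cyclic glandular M and 14.4 CPM in cyclic stromal M. The luminal value of 0 in pregnant M, where 3 reads would be 15.5 CPM, was the 1 luminal library at or below the stromal range.

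Against luminal epithelium of the same mares, stromal SPINT2 had a log2 fold change of -5.00 ± 1.59 (edgeR adjusted p = 0.0868), and against glandular epithelium -5.23 ± 1.56 (0.0551). Both missed the threshold, with 3 mares. They passed with DESeq2 (0.000669 and 0.000635) and without the block (0.0134 and 0.0174), and the glandular one also without the libraries the second deposited table lacks (0.0268). Under all 11 and 10 other settings that tested the gene they ran from -6.16 to -4.19 and from -5.70 to -4.81. Between the epithelia the value was -0.15 ± 0.50 (edgeR adjusted p = 0.965), and its sign turned with several settings.

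Between the states SPINT2 had -0.25 ± 0.77 in luminal epithelium (376 ± 236 CPM in the cycle, n = 5, and 311 ± 397 CPM in pregnancy, n = 4; edgeR adjusted p = 0.987). In glandular epithelium it had 1.11 ± 0.86 (188 ± 125 and 399 ± 176 CPM, n = 4 each; 0.99), with the higher value in pregnancy in 3 of 4 mares. The difference of these effects, 2.78 ± 1.51, did not pass (edgeR adjusted p = 0.867).

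VIM had its lowest median level in glandular epithelium and its highest in stroma. The stromal levels were 1141 CPM in cyclic B, 611 in cyclic M, 649.9 in pregnant M and 2370.1 in pregnant U. Over 9 luminal libraries VIM ranged from 139 to 582 CPM with a median of 329.9, and over 8 glandular libraries from 40.9 to 158 CPM with a median of 103. In scaled CPM all stromal libraries were above all epithelial ones, by a narrow gap to pregnant luminal M (582 CPM). Without the scaling factors stroma and luminal epithelium overlapped, with 294 CPM in pregnant stromal M and 829 CPM in pregnant luminal M. In stroma against glandular epithelium VIM was higher by a log2 fold change of 3.98 ± 1.02, a 15.8-fold difference (edgeR adjusted p = 0.016). Against luminal epithelium the value was 1.69 ± 0.91 (0.531) and did not pass.

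EPCAM was lower in stroma than in glandular epithelium by a log2 fold change of -3.53 ± 0.97 (edgeR adjusted p = 0.0307), an 11.5-fold difference, so that 2 of 5 matched genes passed this comparison, where 1.3% of 4830 genes did. In scaled CPM, libraries of the compartments did not overlap for 3 of 5 genes, EPCAM, SPINT2 and VIM, against 5.47% of all genes tested. In stroma against luminal epithelium 0 of 5 passed, where 1.74% of 3512 genes did, and 1 of 5, VIM, did not overlap in scaled CPM, against 4.61% of genes. Without the scaling factors VIM overlapped there, and SPINT2 overlapped between stroma and glandular epithelium. The median over all genes was -0.60 against luminal and -1.07 against glandular epithelium, and -0.52 and -0.79 with RLE scaling. CDH1 stood at -4.70 ± 2.50 against luminal (0.03 with DESeq2) and -3.90 ± 2.71 against glandular epithelium, and KRT18 at -0.83 ± 2.81 and -0.54 ± 2.32. EPCAM against luminal epithelium was -1.61 ± 1.11, with the stromal value lower in 4 of 4 biopsies.

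Both glandular comparisons of stroma depended on single mares and libraries. Without mare B the adjusted p was 0.528 for VIM and 0.403 for EPCAM, without mare M 0.175 and 0.674, and without the pregnant stromal library of mare M alone 0.0612 and 0.0522. The fold changes meanwhile kept between 3.69 and 4.50 for VIM and between -4.28 and -2.57 for EPCAM over all 12 other settings, of which 7 called VIM and 5 called EPCAM. RLE scaling was among those that did not call EPCAM (0.113), as was the removal of the libraries the second deposited table lacks (-2.57, 0.257).

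**Figure D4:**
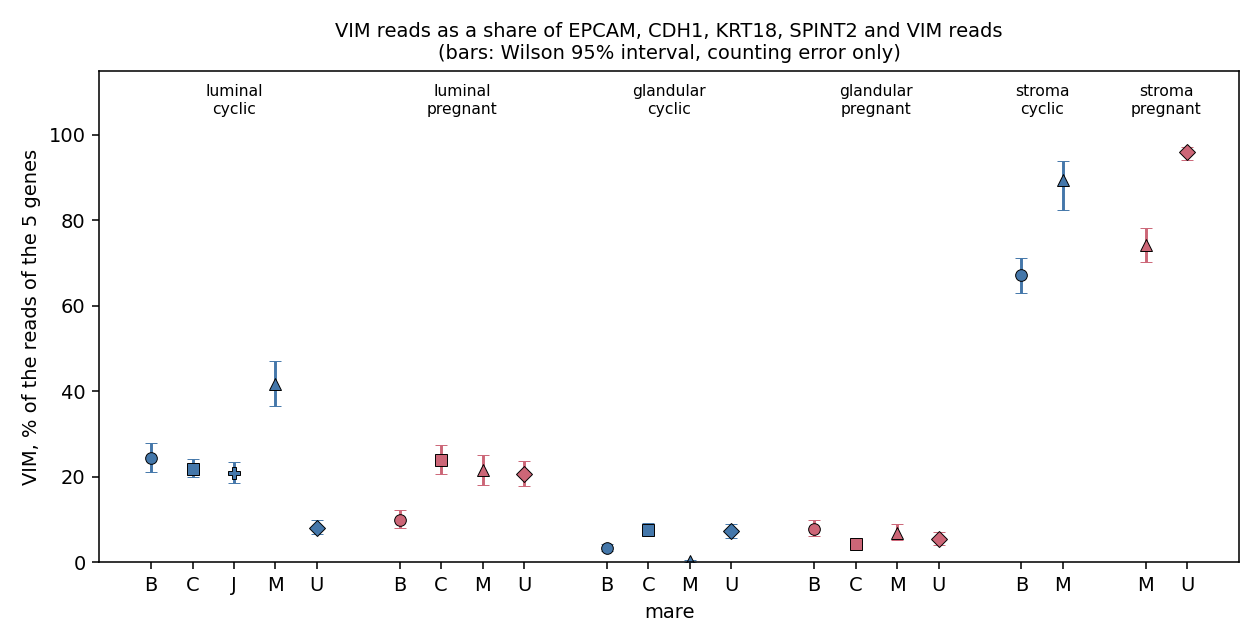
VIM reads as a percentage of the summed reads of EPCAM, CDH1, KRT18, SPINT2 and VIM in each library, with Wilson 95% intervals for counting error. Stromal libraries lie at 67.3% to 95.9%, luminal libraries at 8.08% to 41.8% and glandular libraries at 0.274% to 7.83%.

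As a share of the reads of the 5 genes, which no scaling alters, VIM took 67.3% in cyclic B, 89.5% in cyclic M, 74.4% in pregnant M and 95.9% in pregnant U of the stroma. It took a median of 21.5% in luminal libraries, from 8.08% in cyclic U to 41.8% in cyclic M, and a median of 6.15% in glandular libraries, from 0.274% in cyclic M to 7.83% in pregnant B. Stroma stood well apart in this share, whereas the lowest luminal value (cyclic U, interval 6.58% to 9.9%) and the highest glandular one (pregnant B, 6.14% to 9.93%) differed by less than the counting error. The interval was 36.6% to 47.2% (Wilson, 95%) in cyclic luminal M and 63% to 71.3% in cyclic stromal B, for counting error only. A share compares libraries, not genes, since long and short transcripts give unequal reads. It is also not a measure of VIM alone, since it falls where another of the 5 genes rises. EPCAM took 99.5% of these reads in cyclic glandular M and 41.3% to 74.8% in the other glandular libraries. In luminal libraries it took 6.1% to 59.5%.

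Between the epithelia, the luminal VIM level was the higher one in 7 of 8 biopsies with cyclic U as the exception. The log2 fold change was 1.66 ± 0.58, a 3.17-fold difference, just short of the threshold (edgeR adjusted p = 0.055). It passed with RLE scaling (0.0445) and with DESeq2 (0.00957), and ran from 1.34 to 1.91 over 14 other settings.

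Markers of other cell types were set beside VIM in the epithelia. Leukocyte markers, all 12 with an ID, summed to 23 to 570.2 CPM in luminal and 6.82 to 148 CPM in glandular libraries. CD3E had no count in any glandular library. Of 3 leukocyte genes tested 1 passed, GZMA, a granule protease of cytotoxic lymphocytes, with a mean of 50.3 CPM in luminal and a single read in glandular libraries (edgeR adjusted p = 0.0151). Of 10 fibroblast genes tested 1 passed, COL1A1, which was higher in luminal epithelium (2.87 ± 0.52, edgeR adjusted p = 3.01e-06). The mean of COL1A1 was 739 CPM in luminal, 93.7 in glandular and 1664 in stromal libraries. Of the 10 genes, 8 had a log2 fold change above 0, with a median of 1.02 against -0.25 over all genes. The fibroblast markers did not all go this way. Mean levels of DCN, PDGFRA and HAND2 were higher in glandular libraries (PDGFRA 19.7 CPM, against 10.7 in luminal ones). The other matched markers of that list had the higher mean in luminal libraries. Of 4 ciliated cell genes tested 3 passed and were higher in luminal epithelium, FOXJ1 (4.18 ± 0.67), DNAH5 (3.89 ± 0.76) and TPPP3 (2.96 ± 0.84; edgeR adjusted p of 5.44e-08, 2.09e-05 and 0.00978). Endothelial markers summed to 0 to 95.8 CPM in luminal and 4.83 to 285 CPM in glandular libraries. The part of these cell types in the VIM difference was not tested.

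Over the 17 epithelial libraries, log2 VIM had Pearson r = 0.75 with the leukocyte sum, 0.62 with the ciliated cell sum and 0.50 with the fibroblast sum. Across the 9 luminal libraries these were 0.37, -0.44 and 0.31, and across the 8 glandular ones 0.57, 0.092 and -0.45. With the smooth muscle sum r was -0.69 in luminal libraries. These values describe few libraries that share mares and differ in depth, and no trend is read from them. Among the 4 epithelial genes, r within luminal libraries ran from -0.51 (EPCAM with SPINT2) to 0.51 (EPCAM with CDH1). Within glandular libraries it ran from -0.94 (EPCAM with SPINT2) to 0.43 (CDH1 with SPINT2). By ranks (Spearman) EPCAM with SPINT2 had -0.57 in glandular libraries, and EPCAM with CDH1 0.083 in luminal ones. The glandular libraries include cyclic M, with 14861 CPM of EPCAM and 3 reads of SPINT2.

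Between the states VIM stood at 318 ± 113 CPM (n = 5) in cyclic and 379 ± 157 CPM (n = 4) in pregnant luminal epithelium, a log2 fold change of 0.24 ± 0.75 (edgeR adjusted p = 0.987). In glandular epithelium it stood at 102 ± 60 and 109 ± 20.9 CPM (n = 4 each; 0.12 ± 1.09, adjusted p = 0.999), where 0 of 5 genes passed against 0.0623% of 4816, and the states overlapped for all 5, against 2.78% of genes that did not overlap. In stroma the value was 0.76 ± 1.20 for VIM and -0.12 ± 2.54 for EPCAM (edgeR adjusted p = 0.999 each). These were the 2 of 5 genes that passed the filter on low counts there, and 0 of 2212 genes were called by edgeR (0%), 88 had an unadjusted p under 0.05, and DESeq2 also called 0. None of the 5 genes passed in the difference of the pregnancy effects, where 0.0145% of 6884 genes did.

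Regulators of the epithelial and mesenchymal programmes were listed beside the members. KLF5, a transcription factor of epithelia, was lower in stroma than in luminal epithelium (-4.63 ± 1.34; edgeR adjusted p = 0.0352) and was 1 of 2 epithelial regulators tested there. In stroma against glandular epithelium KLF5 had -3.78 ± 1.74 (edgeR adjusted p = 0.394), and 0 of 4 epithelial regulators tested passed. ZEB2, a repressor of epithelial genes such as CDH1, was higher in stroma than in glandular epithelium (6.44 ± 1.84; edgeR adjusted p = 0.0387) and was 1 of 2 genes tested of a list of 14 mesenchymal filaments, cadherins and regulators. In stroma against luminal epithelium ZEB2 had 4.03 ± 1.68 (edgeR adjusted p = 0.294), and 0 of 3 genes tested of that list passed. The mean level of ZEB2 was 283 CPM in stroma, 19.9 in luminal and 15.1 in glandular libraries. Between the states 0 of 5 epithelial regulators tested passed in luminal and 0 of 4 in glandular epithelium. Of the mesenchymal list 0 genes could be tested in luminal epithelium and 1, which did not pass, in glandular epithelium. In stroma DCN, a matrix proteoglycan (6.42 ± 1.39, adjusted p = 0.000761), and FBLN1, a matrix glycoprotein (6.84 ± 1.68, 0.00536), were the 2 of 11 fibroblast genes higher than in luminal epithelium by edgeR. Against glandular epithelium, COL1A1 (4.43 ± 1.08, adjusted p = 0.0115) and COL1A2 (3.55 ± 0.95, 0.0236) were the 2 of 10 fibroblast genes that passed. TAGLN (333 against 1.24 CPM, adjusted p = 0.00465) and MYH11 (232 against 1.13 CPM, 0.0232), genes of the smooth muscle contractile apparatus, passed as 2 of 3 smooth muscle genes tested by edgeR. Of the 8 genes on that list, CNN1, ACTG2 and SMTN had no count in any stromal library. SMTN had a mean of 6.55 CPM in glandular libraries. DSP, desmoplakin, which ties keratin to the desmosome, stood at -3.88 ± 1.23 in stroma against luminal (edgeR adjusted p = 0.0868) and -4.09 ± 1.28 against glandular epithelium (0.0823). PLEC of the same list had 2.25 ± 1.57 against luminal epithelium (edgeR adjusted p = 0.762). The list did not fall evenly in stroma. Its sum was 1524 CPM in pregnant stromal M, within the luminal range of 917 to 2028. In the other stromal libraries it was 698 in cyclic B, 77.8 in cyclic M and 41.3 in pregnant U.

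The genes whose log2 CPM followed that of EPCAM most closely over all 21 libraries were SEC11C, a signal peptidase subunit (Pearson r = 0.844), TBC1D9 (0.843) and SELENOS, a selenoprotein of the endoplasmic reticulum (0.841), out of 3390 genes. SELENOS stood at a mean of 357 CPM in glandular, 104 in luminal and 10.9 in stromal libraries. VIM was followed most closely by TNFSF10, a death ligand (0.782), IGFBP7, a secreted growth factor binder (0.776), and SAMD9 (0.771). IGFBP7 stood at a mean of 609.9 CPM in stromal, 123 in luminal and 37.1 in glandular libraries. These likenesses span the compartments and share libraries and scaling, so they are descriptions.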

How the data were processed

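Per the submitters' processing notes, Trimmomatic 0.32.2 and HISAT2 2.0.3 were used. For the counting step, its tool, genome build and annotation were not given in the sources used here. Deposited were raw read counts and 2 tables of signal, which are counts that the authors scaled to an effective library size, and these served as alternatives. Gene IDs were turned into symbols with RefSeq (85.9% matched). Sequences were not used here. Counts of overlapping genes and of reads from the opposite strand are uncertain. The members and lists were chosen with earlier results of these data known.

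Analyses ran in R 4.3.3. Main tests were two-sided edgeR 4.0.16 quasi-likelihood tests on counts, scaled by TMM and filtered by filterByExpr with its count minimum at 10 and total at 15. P-values were adjusted by Benjamini-Hochberg over all genes tested in a comparison, with a threshold of 0.05. The SE is the absolute estimate over the square root of F. Compartments were compared on counts summed per mare over shared biopsies with the mare as block, and states with no block. The biopsy was the block for the difference between pregnancy effects. DESeq2 1.42.0 and limma 3.58.1 (on log2 signal + 1) were alternatives. Scripts were tested on simulated data. Levels are CPM of the TMM-scaled size over all 21 libraries, and correlations used log2 CPM with a prior count of 2. Named genes were the members, and of each list up to 4 called genes with the smallest adjusted p or, with none, up to 2 with the smallest p. For 1 listed gene the values are not reported here. For likeness they were the top 3 by r with EPCAM and with VIM among genes with a mean of at least 50 CPM and a count in at least 11 libraries. Same letters mark the same mare, so the states are paired by animal. Deviations of a mare's cyclic and pregnant libraries from their group means correlated with r of -0.0138 to 0.0627 over 3410 genes. Libraries of a group came from separate mares. Amplified reads are not independent molecules, so intervals and floors hold counting error alone.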

Additional observations from a re-analysis of the deposited data

Results flagged for a closer look

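Cyclic glandular mare M had 14861 CPM of EPCAM (2178 reads), while its 3 fellow libraries reached 1523 CPM at the highest, a gap that set it apart as an outlier of its group. The same library held 1 read of CDH1, 1 of KRT18, 3 of SPINT2 and 6 of VIM, from a total count of 222623. SPINT2 stood at 793 CPM (480 reads) in cyclic luminal mare U, and the 4 fellow libraries reached 326 CPM at the highest. This was checked for 5 genes in 4 groups of 4 or 5 libraries, 20 sets of values in all. Chance flags about 1 in 20 where values follow a normal distribution. Unlogged CPM need not follow it, so the chance rate here is not known.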

How the results depend on the processing

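The 32 tested effects of the matched genes gave 430 values under other settings, of which 363 kept their sign and their side of the threshold, 14 gained a call, 14 lost one and 39 changed sign. In 0 of the sign changes was the value past the threshold before or after. Some fits stand in these counts more than once. Removing the libraries the second table lacks equalled removing pregnant luminal M for the luminal states and cyclic glandular M for the glandular ones. It equalled removing mare M between the epithelia and in the difference of effects. All settings were planned except total counts without scaling factors and the removal of the pregnant stromal library of mare M, which were chosen after seeing the data. In stroma against luminal epithelium that removal equalled the planned one of the libraries the second table lacks. The cause of these changes was not tested.

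Of the matched genes, the luminal state comparison called 1 (0 in the main test) with RLE, DESeq2 and without the libraries the second table lacks, and 0 to 1 without 1 library. Luminal against glandular called 2 with RLE, 3 with DESeq2 and 0 with the biopsy as block or in pregnant libraries alone (main 1; EPCAM -1.45 and -0.79). Stroma against luminal called 2 with DESeq2 and 1 with no replicate block (main 0). Stroma against glandular called 1 with RLE, and 0 with no filter, without pregnant stromal M or with total counts (main 2), and 0 to 2 without 1 mare.

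Over all genes, the luminal state comparison called 19, and 12 with no filter, 83 with DESeq2, 12 with the mare as replicate block, 37 without the libraries the second table lacks and 2 to 37 without 1 library. The glandular one called 3, and 0 with RLE, DESeq2, the replicate block or limma on 21 libraries, 1 with limma on 19, 34 with no filter, 5 without the libraries the second table lacks, 5 with total counts and 0 to 28 without 1 library. The stromal one called 2 with no filter and 0 to 2 without 1 library (main 0). Luminal against glandular called 498, and 1009 with DESeq2, 247 with the biopsy as block, 120 in cyclic and 130 in pregnant libraries, and 230 to 411 without 1 mare. Stroma against luminal called 61, and 29 with no filter, 474 with DESeq2, 34 with the biopsy as block, 39 with total counts and 18 to 36 without 1 mare. Stroma against glandular called 63, and 20 with no filter or total counts, 526 with DESeq2, 99 with no replicate block, 9 without pregnant stromal M and 0 to 45 without 1 mare. The difference of effects called 1, 78 with DESeq2 and 0 without ribosomal RNA genes.

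Sign changes were as follows, all without a call. Without the libraries the second table lacks, luminal state values were -0.17 for EPCAM, 0.15 for SPINT2 and -0.054 for VIM, glandular VIM -0.14, the difference of effects for EPCAM 0.21 and luminal against glandular SPINT2 0.19. Glandular VIM was -0.0020 with DESeq2, -0.041 with limma on 19 libraries and -0.26 with total counts. Stromal EPCAM was 0.053 and 0.039 with limma on 21 and 19 libraries. SPINT2 between the epithelia was 0.17 with no replicate block, 0.15 with the biopsy as block and 1.34 in cyclic libraries, and KRT18 -0.20 in pregnant ones. With no replicate block KRT18 was 0.35 in stroma against luminal and 0.51 against glandular. The difference of effects for KRT18 was -0.032 with total counts. Without 1 library or mare, ranges were -0.17 to 0.85 (EPCAM), -1.49 to 0.20 (SPINT2) and -0.054 to 0.44 (VIM) in luminal states, -0.089 to 1.30 (CDH1), -1.15 to 0.31 (KRT18) and -0.14 to 0.43 (VIM) in glandular states, and -0.91 to 1.35 (EPCAM) and -0.36 to 1.37 (VIM) in stromal states, where the lone library of a state was assumed to vary like the others. They were -0.60 to 0.19 (SPINT2) between the epithelia, -1.35 to 1.27 and -2.00 to 0.94 for KRT18 in stroma against luminal and glandular, and -2.30 to 0.21 (EPCAM) and -0.82 to 0.62 (VIM) for the difference of effects. In stroma a paired fit was not possible, since 1 mare gave both states. CDH1 under the floor in 7 of 21 libraries limits what its low levels can show.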
